A study of Mus musculus with 32 samples.

Results

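PRDM16 is a zinc-finger transcriptional regulator of the PRDM family. It is known to be needed for the maintenance of haematopoietic stem cells (HSCs), the rare marrow cells from which all blood lineages arise, and it acts with corepressors and with C/EBP factors in other tissues. The libraries described here carry the label of its loss in adult mouse bone marrow. They are the 8 bone marrow samples of a series of 32, chosen by their labels alone: 4 labelled PRDM16-KO and 4 labelled wild type, all in 1 deposited count table. Each is RNA from sorted cells described as negative for lineage markers, positive for cKit and Sca1 and negative for CD48, the gate that enriches HSCs. The cells were neither cultured nor treated. Column names carry the prefix VAV, which the labels do not explain. The strain, the age beyond adult, the allele, any Cre driver and the number of animals behind a library are not given in the sources used here. The replicates are called independent in the design text, and the p-values below measure the spread between these samples.

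Each library held 22.5 to 29.3 M counts, with a count in 14285 genes (KO 3) to 18933 genes (WT 3). In a principal component analysis KO 3 stood apart on the first component (28.2% of the variance), WT 4 on the second (22.1%) and WT 2 on the third (16.99%), so 1 knockout-labelled and 2 wild-type libraries differed from the rest of their groups. Transcripts of the Y chromosome were close to absent from KO 1 alone, where Ddx3y stood at 0.038 CPM against 8.32 to 77.1 in the other 7 libraries, and all 8 libraries held Xist (48.8 to 417 CPM). The sex of the animals is not given in the labels. Without KO 1, 0 genes passed in the test below and the immediate early list described below had a median of -0.92. The median SD between libraries of log2 CPM was 0.36 in wild type and 0.22 in the libraries labelled KO, and the wild-type SD was the larger in 70.9% of 13495 genes. Values are given below as CPM, counts per M counts after trimmed-mean (TMM) normalisation, in the order of libraries 1, 2, 3 and 4. Errors after ± are standard errors of log2 fold changes (KO minus WT).

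Transcripts of the targeted gene were present in all 8 libraries. Prdm16 stood at 51.9, 22.5, 37.8 and 10.8 CPM in wild type (1357, 657, 950 and 272 counts). In the libraries labelled KO it stood at 41.3, 25.2, 40.4 and 13.4 CPM (1080, 694, 917 and 326 counts). The groups overlapped over their whole range, with library 4 lowest in both. The log2 difference was -0.03 ± 0.45 (edgeR quasi-likelihood test, adjusted p = 0.988). An exact two-sided permutation test of mean log2 CPM gave p = 0.914, where 4 libraries against 4 can give no less than 0.0286. Whole-gene counts do not show whether part of the gene was deleted, so the label could not be checked with them, and the libraries are called labelled KO throughout.

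The other genes that define the sort and the stem cell state also overlapped between the groups. Kit, the stem cell factor receptor, stood at 1292, 460, 1616 and 849 CPM in wild type and at 1556, 1272, 1468 and 1164 in the libraries labelled KO. WT 2 and WT 4 were the low libraries (0.37 ± 0.31, adjusted p = 0.720). Ly6a, which encodes Sca1, differed by -0.11 ± 0.20. Cd48, which the gate selects against, was found at 12.7 to 24.4 CPM in wild type and 5.81 to 23.9 in the libraries labelled KO. For Slamf1 (CD150) the difference was -0.30 ± 0.28 and for Procr (EPCR), another HSC surface protein, -0.21 ± 0.25. Mecom, which encodes the PRDM relative EVI1, differed by 0.44 ± 0.25, and Hlf, an HSC transcription factor, by 0.14 ± 0.24. None of these passed the test, and the directions of Ly6a, Cd48, Procr and Hlf depended on which library or setting was used.

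**Figure D1:**
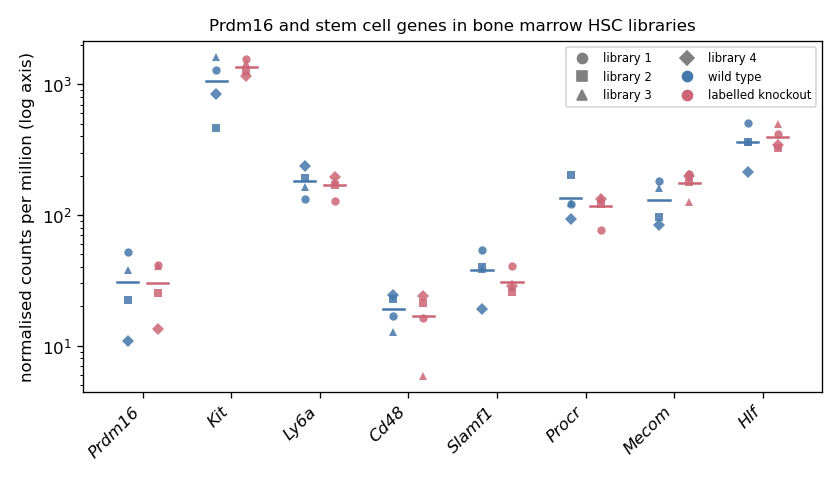
Normalised CPM (log axis) of Prdm16 and 7 stem cell genes in each library; symbols mark the library number, colours the label, and horizontal bars the group mean. Prdm16 runs from 10.8 to 51.9 in wild type and from 13.4 to 41.3 in the libraries labelled KO, and the 2 groups overlap for every gene shown.

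Which genes differed between the labels was tested over all 13495 genes with enough counts. No gene passed an adjusted p of 0.05 in edgeR (0%). At an unadjusted p under 0.05 there were 1141 genes (8.45%), 650 with more RNA in the libraries labelled KO (4.82%) and 491 with less (3.64%). The CPM of both groups did not overlap for 449 genes that were above wild type (3.33%) and 365 that were below (2.7%). DESeq2, another count model, called 82 of the 16713 genes to which it gave an adjusted p (0.491%), 35 higher (0.209%) and 47 lower (0.281%). Of these, 74 had been tested in edgeR, and all 74 had an unadjusted p under 0.05 there. limma voom with quality weights called 0 genes, with 2185 at an unadjusted p under 0.05. The genes below are therefore described with their values and are not calls of the edgeR test.

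The list with the lowest median held immediate early genes. These are genes such as Fos and Jun that are induced within minutes of a stimulus, without new protein synthesis, and are also known to be induced by tissue dissociation. The list held 34 genes for transcription factors (AP-1, EGR and NR4A families), feedback phosphatases and growth arrest proteins, and all 34 were tested. Of them 33 had a lower value in the libraries labelled KO, against 53.8% of all genes, and 24 were lower at an unadjusted p under 0.05, or 70.6% against the 3.64% of all genes. None was higher at that level. The members were chosen with earlier results of these data known, so these shares are not independent of the values. The median of the list was -0.89 against -0.03 for all genes, 0 members passed in edgeR, and 9 were called by DESeq2, all lower.

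Short promoter stretches are given for 4 of those 9 genes, chosen for a motif, so its presence in all 4 follows from the choice. They are the members called by DESeq2 whose stretch in the RefSeq table holds TGACG, the core of the cAMP response element bound by CREB and ATF factors. Each is the 250 bases before the transcription start in RefSeq, build GRCm38.p6, given 5′ to 3′ on the strand of the gene. Capitals mark TGACG on either strand. In Btg2 and Dusp1 a pair of overlapping matches forms the full palindrome TGACGTCA.
Fos (chr12:85473640-85473889, plus strand): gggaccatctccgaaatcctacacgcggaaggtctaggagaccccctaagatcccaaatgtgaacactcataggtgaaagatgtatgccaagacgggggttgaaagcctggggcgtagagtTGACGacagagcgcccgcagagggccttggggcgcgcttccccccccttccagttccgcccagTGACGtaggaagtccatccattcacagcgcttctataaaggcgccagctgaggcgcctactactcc
Btg2 (chr1:134079156-134079405, minus strand): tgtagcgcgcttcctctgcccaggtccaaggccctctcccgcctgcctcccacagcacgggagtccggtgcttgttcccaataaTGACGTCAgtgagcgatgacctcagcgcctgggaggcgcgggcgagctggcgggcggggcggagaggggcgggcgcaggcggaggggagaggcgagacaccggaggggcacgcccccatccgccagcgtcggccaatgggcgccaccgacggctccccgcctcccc
Dusp1 (chr17:26508473-26508722, minus strand): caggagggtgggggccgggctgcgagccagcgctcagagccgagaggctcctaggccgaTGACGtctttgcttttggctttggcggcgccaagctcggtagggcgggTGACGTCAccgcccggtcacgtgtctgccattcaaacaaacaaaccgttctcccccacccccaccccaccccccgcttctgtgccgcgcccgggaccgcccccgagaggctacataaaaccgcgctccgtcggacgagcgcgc
Junb (chr8:84978749-84978998, minus strand): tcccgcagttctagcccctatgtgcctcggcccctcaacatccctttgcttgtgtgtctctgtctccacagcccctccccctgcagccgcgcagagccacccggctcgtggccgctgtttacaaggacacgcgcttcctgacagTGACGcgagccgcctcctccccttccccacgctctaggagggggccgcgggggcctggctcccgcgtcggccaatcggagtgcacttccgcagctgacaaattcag

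The nearest match lies 66 bases before the start in Fos, 106 in Junb, 140 in Dusp1 and 163 in Btg2. Of the list, 29 genes had a promoter in the table, and 15 of them (51.7%) held TGACG within 250 bases, against 30.2% of 10113 genes tested in marrow and 19.8% of all 27025 genes in the table. The full TGACGTCA was in 4 of 29 (13.8%), against 2.99% of tested genes and 1.77% of all. These matches describe the letters only, and binding was not measured.

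Among the AP-1 genes, Fos stood at 4277, 4009, 3448 and 1781 CPM in wild type and at 1777, 1543, 1747 and 1567 in the libraries labelled KO. The libraries labelled KO were below all of wild type, but WT 4 lay just above KO 1. The difference was -1.03 ± 0.24 (edgeR unadjusted p = 0.00104, adjusted p = 0.478, and 0.0181 in DESeq2). Its partner gene Junb was found at 1342, 1279, 1134 and 617 CPM in wild type against 535, 558, 719 and 461, with WT 4 below KO 3 (-0.94 ± 0.23). Jun, another AP-1 subunit gene, was at 5070, 5401, 3759 and 2914 CPM against 1955, 2607, 2921 and 2720 (-0.75 ± 0.21), and WT 4 again fell among the libraries labelled KO.

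Among feedback regulators, Dusp1, a phosphatase that switches off MAP kinases, stood at 2083, 2050, 2152 and 1627 CPM in wild type and at 1032, 1312, 1446 and 1302 in the libraries labelled KO (-0.64 ± 0.16). These groups did not overlap. Ier3, an early response gene linked to survival, was at 269, 300, 192 and 191 CPM against 113, 110, 142 and 75.5 (-1.11 ± 0.21). Ier2 and Ier5, a pair of related early genes, differed by -0.84 ± 0.21 and -0.84 ± 0.20.

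The growth arrest members included Btg2, an antiproliferative p53 target, at 434, 292, 242 and 126 CPM in wild type and 76.8, 108, 109 and 123 in the libraries labelled KO (-1.40 ± 0.30, adjusted p = 0.478). WT 4 was within 3 CPM of KO 4. Gadd45g, a stress-inducible growth arrest gene, was at 27.3, 27.0, 17.2 and 24.5 CPM against 10.1, 11.7, 11.3 and 9.38 (-1.18 ± 0.22), and here WT 4 stayed with the other wild-type libraries. Gadd45b differed by -1.30 ± 0.32. The orphan nuclear receptor gene Nr4a1 ran from 94.0 CPM in WT 4 to 2116 in WT 1, while the libraries labelled KO held 210 to 331 (-1.97 ± 0.70), so WT 4 was lower than any of them. Egr1, a zinc-finger early factor, differed by -0.72 ± 0.43 with an unadjusted p of 0.121. Myc was the 1 member with a higher value (0.04 ± 0.16), at 652 to 946 CPM in wild type and 688 to 919 in the libraries labelled KO.

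Summed over the list, the 34 genes held 31667, 30685, 23309 and 14535 CPM in wild type and 13361, 13841, 16432 and 13461 CPM in the libraries labelled KO. The groups overlapped on this sum, since WT 4 lay below KO 3. Without WT 4 the list's median was -1.12, and 28 members had an unadjusted p under 0.05. In that fit 1166 of 13756 genes were at that level, and 3 genes passed in edgeR: Fos (-1.25, adjusted p = 0.0258), Nr4a1 (-2.36, 0.0466) and Rgcc (-1.78, 0.0258). Without WT 1 the median was -0.76 with 18 members at that level, in a fit with 2336 of 13789 genes there.

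**Figure D2:**
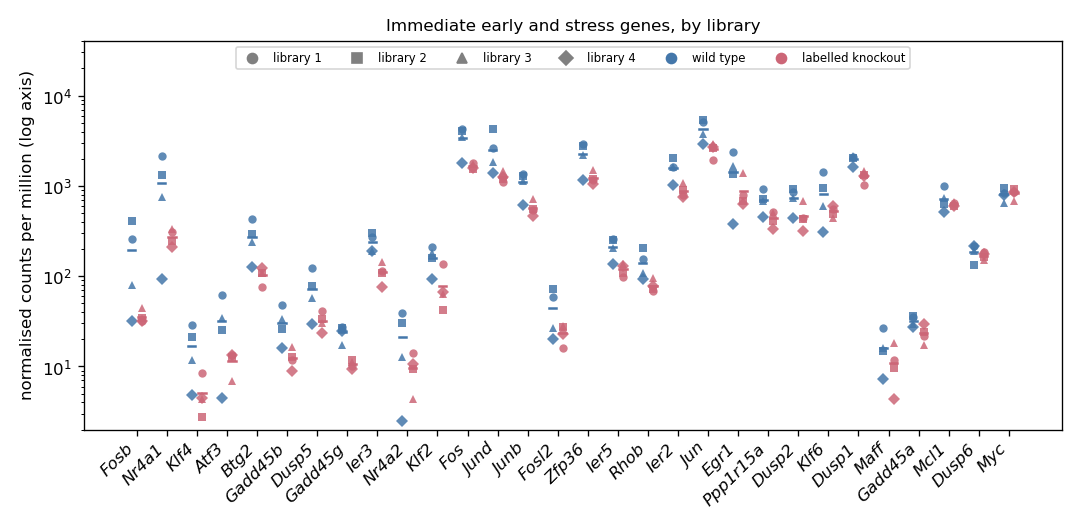
Normalised CPM (log axis) of the 30 immediate early and stress genes with a mean of at least 10 in wild type, ordered by log2 fold change; symbols mark the library number, colours the label, and bars the group mean. Wild-type libraries 1 to 3 mostly lie above the libraries labelled KO, and WT 4 (blue diamonds) lies among or near them for many genes, as for Fos at 1781 against 1543 to 1777, but not for Gadd45g at 24.5 against 9.38 to 11.7.

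Beyond the list, the genes with the smallest p-values and no overlap between groups were led on the lower side by Sertad1. It encodes a transcriptional coregulator that binds the cyclin-dependent kinase CDK4. Its CPM was 126, 141, 116 and 132 in wild type and 53.4, 65.7, 72.6 and 63.5 in the libraries labelled KO, in all libraries with little spread (-1.01 ± 0.15, unadjusted p = 2.02e-05, adjusted p = 0.272). WT 4 was not low for this gene. Gdf15, a stress-induced cytokine of the TGF-beta family, stood at 16.97, 30.0, 9.91 and 12.002 CPM against 4.09, 5.93, 4.80 and 4.28 (-1.85 ± 0.36). Atf4, the central transcription factor of the integrated stress response, was at 319, 366, 246 and 249 CPM against 164, 168, 178 and 183 (-0.77 ± 0.15).

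Others on this side were Rgcc (-1.52 ± 0.30), a cell cycle regulator, and Troap (-1.46 ± 0.29), a spindle-associated protein gene. In a list of 30 integrated stress response genes, chosen after Atf4 and Gdf15 had been seen, 28 were tested. The median was -0.06, with 8 lower (28.6%, against 3.64% of all genes) and 1 higher (3.57%, against 4.82%) at an unadjusted p under 0.05. The list is not independent of these values. Of the 8, 3 were called by DESeq2: Atf4, Gdf15 and Ddit3.

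On the higher side the leading gene was Slc5a3, which encodes a sodium-dependent myo-inositol transporter induced by osmotic stress. It stood at 6.88, 8.01, 9.15 and 6.58 CPM in wild type and at 22.9, 20.9, 21.4 and 17.7 in the libraries labelled KO, a gap wider than the range of either group (1.44 ± 0.23, unadjusted p = 4.2e-05, adjusted p = 0.283, and 9.71e-08 in DESeq2). Zbtb41, a zinc-finger protein gene, was at 27.1, 15.2, 18.9 and 20.2 CPM against 39.2, 41.4, 54.9 and 52.8 (1.21 ± 0.22). Xpo1, the main nuclear export receptor, was at 135, 104, 139 and 106 CPM against 217, 202, 180 and 278 (0.86 ± 0.17).

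The remaining genes on that side were Edem3 (1.31 ± 0.27), which acts in the degradation of misfolded glycoproteins, Ints2 (0.92 ± 0.19), an Integrator subunit gene, Klhl4 (1.01 ± 0.22), Kpna3 (0.74 ± 0.16), a nuclear import receptor gene, and Hells (0.92 ± 0.20), a chromatin remodeller gene. Their adjusted p was 0.478 each in edgeR.

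**Figure D3:**
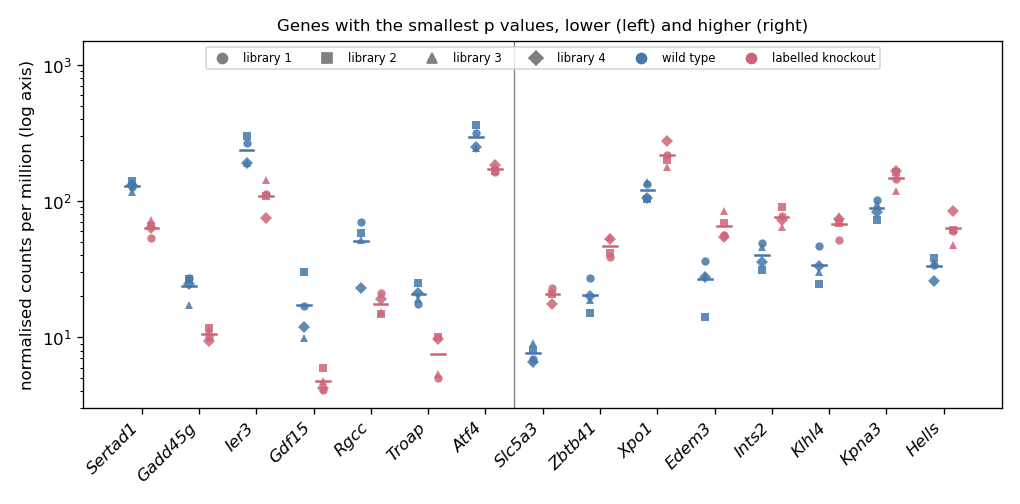
Normalised CPM (log axis) in each library for genes with the smallest p-values among those lower (7, left of the line) and higher (8, right of the line) in the libraries labelled KO without overlap; symbols mark the library number, colours the label, and bars the group mean. Slc5a3 runs from 6.58 to 9.15 in wild type and from 17.7 to 22.9 in the libraries labelled KO.

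Transcript GC content and length moved with the direction of difference over the whole table. Genes whose CPM lay above wild type in every library labelled KO had a median GC content of 44.1% and a median transcript length of 4402 bases. Genes below wild type had 54.2% and 2005 bases, and all tested genes 50.2% and 3046 bases. The median log2 difference went from 0.24 in the decile of genes with the lowest GC content to -0.23 in the decile with the highest. Among libraries, GC-rich minus GC-poor genes differed by -0.21, 0.50, 0.04 and 0.40 (log2) in wild type and by -0.22, -0.16, -0.08 and -0.35 in the libraries labelled KO, so WT 2 and WT 4 were the GC-rich libraries and WT 1 lay with the libraries labelled KO. With the GC and length trend of each library removed, 840 genes had an unadjusted p under 0.05 and 0 passed in edgeR. Under this adjustment 23 of the 34 immediate early genes were lower at that level, with a median of -0.82, Slc5a3 differed by 1.14 and Sertad1 by -0.81. Of the other genes with the smallest p-values on the higher side, several came down by over 1.5 times: Zbtb41 to 0.78, Xpo1 to 0.48, Kpna3 to 0.40 and Hells to 0.46. Mecom came down to 0.25. Values below called adjusted for GC and length come from this fit, and are given where they are over 1.5 times smaller.

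**Figure D4:**
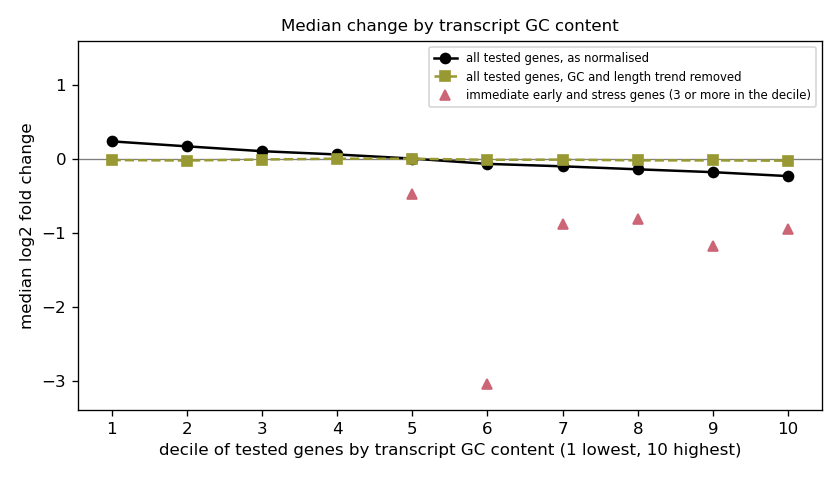
Median log2 fold change (KO minus WT) in each decile of tested genes by transcript GC content, before (circles) and after (squares) the GC and length trend of each library was removed; triangles give the immediate early and stress genes, before removal, in deciles that hold 3 or more of them. All tested genes run from 0.24 to -0.23, and the triangles lie well below the line of all genes, as at -0.94 in the last decile.

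Ribosomal protein genes moved with that trend. All 50 tested had a lower value in the libraries labelled KO, with a median of -0.31, but 0 reached an unadjusted p under 0.05, and with the trend removed 40 were lower, with a median of -0.09. Rpl32, of the large subunit, stood at 759, 1380, 1072 and 1254 CPM in wild type against 863, 888, 911 and 827, and WT 1 was below all libraries labelled KO (-0.36, and -0.15 adjusted for GC and length). Without WT 1, 47 of the 50 were lower at an unadjusted p under 0.05, in a fit with 2336 of 13789 genes at that level. Without WT 2, WT 3 or WT 4 the number was 0 of 50. Oxidative phosphorylation genes had 42 of 48 lower values, against 53.8% of all genes, and a median of -0.17, again with 0 at that level. This median ranged from -0.35 to 0.01 over the alternatives. As the list's median deviation from the wild-type mean, WT 1 stood at -0.67 and the libraries labelled KO at -0.20 to 0.03.

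HSC transcription factor genes showed a median of -0.18, with 20 of 30 lower. Only Hoxb5, a marker of long-term HSCs, reached an unadjusted p under 0.05, at 17.5, 24.6, 15.1 and 16.9 CPM against 14.6, 8.59, 13.03 and 13.1 (-0.59 ± 0.25, adjusted p = 0.579). The groups did not overlap but were close. Erg and Lmo2, both factors of the stem cell network, differed by -0.60 ± 0.30 and -0.29 ± 0.15, and Myb, a progenitor factor, by 0.36 ± 0.17. Adjusted for GC and length, Lmo2 was at -0.16 and Myb at 0.22. Without WT 4, 9 of the 30 were lower at that level, in a fit with 1166 of 13756 genes there in either direction. Without WT 1, in a fit with 2336 of 13789 genes at that level, 1 was lower and 5 were higher. Without WT 2, KO 2 or KO 4, 0 were lower. HSC surface and signature genes had a median of -0.10, with 25 of 38 lower and 1, Robo4, a receptor that helps hold HSCs in the marrow, at an unadjusted p under 0.05 (-0.44 ± 0.19). The 24 genes tested of the HOXA, MEIS and MLL-AF9 programme and the 13 of the fetal HSC programme had 0 members at that level.

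PRDM family genes and partners of PRDM16 had a median of 0.12, with 17 of 22 higher, against 6235 of all 13495 genes. Their median transcript length was 5185.5 bases, and all tested genes of 5021 bases or more had a median of 0.14. Cebpb, which encodes a C/EBP partner of PRDM16 in brown fat, stood at 157, 192, 193 and 139 CPM in wild type and 95.5, 124, 129 and 122 in the libraries labelled KO (-0.53 ± 0.16, adjusted p = 0.521). The groups did not overlap, although the value was -0.27 with the GC and length trend removed. Hdac2, a corepressor deacetylase gene, differed by 0.41 ± 0.16 and Prdm15, another family member, by 0.59 ± 0.26. Among chromatin regulators, Ring1, a Polycomb E3 ligase gene, was the 1 of 27 at an unadjusted p under 0.05 (-0.46 ± 0.17), and Bmi1, a Polycomb gene needed for HSC self-renewal, differed by 0.57 ± 0.29. Adjusted for GC and length, Hdac2 was at 0.18, Ring1 at -0.27 and Bmi1 at 0.34.

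Cell cycle genes did not share a direction. Of 42 proliferation genes 25 were lower, with a median of -0.12, 6 lower (14.3%, against 3.64% of all genes) and 1 higher (2.38%, against 4.82%) at an unadjusted p under 0.05. The 4 named below act in mitosis. Cdc20, the activator of the anaphase-promoting complex, stood at 101, 162, 150 and 204 CPM in wild type and at 74.1, 103, 109 and 92.2 in the libraries labelled KO (-0.71 ± 0.21, adjusted p = 0.521). WT 1 fell among the libraries labelled KO and WT 4 was the highest. Aurka, a mitotic kinase gene, differed by -0.76 ± 0.28, Ccnb2 (cyclin B2) by -0.66 ± 0.23 and Ube2c, a ubiquitin-conjugating enzyme gene of mitotic exit, by -0.79 ± 0.31. The list's median ranged from -0.24 to 0.08 over the alternatives. Without WT 4, 2 members were lower and 4 higher at an unadjusted p under 0.05, in a fit with 1166 of 13756 genes there. Without WT 1, 11 were lower and 0 higher, in a fit with 2336 of 13789 genes there.

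Quiescence genes and CDK inhibitors had 4 of 16 members lower (25%, against 3.64% of all genes) and 1 higher (6.25%, against 4.82%) at that level. Btg2, described above with the immediate early list, was among the lower ones. The median of the quiescence list was -0.18. Cdkn1a (p21) stood at 76.3, 54.7, 42.2 and 16.1 CPM in wild type against 20.6, 19.5, 21.0 and 13.6 (-1.34 ± 0.37), with WT 4 again among the libraries labelled KO. Cdkn2d (p19) was at 8.10, 7.49, 9.11 and 8.20 CPM against 5.39, 5.17, 4.97 and 4.56 without overlap (-0.71 ± 0.27). Rbl1 (p107) was the higher one (0.43 ± 0.18). Among p53 targets, Trp53inp1 and Ccng1 differed by 0.87 ± 0.31 and 0.64 ± 0.23, opposite in sign to Cdkn1a. Adjusted for GC and length, Rbl1 was at 0.10, Trp53inp1 at 0.46 and Ccng1 at 0.40.

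Among TGF-beta and BMP genes 3 of 27 were lower and 3 higher (11.1% each) at an unadjusted p under 0.05. Of all genes 3.64% were lower and 4.82% higher at that level. The median of the list was -0.04. Id1, an inhibitor of basic helix-loop-helix factors, stood at 34.2, 26.8, 40.2 and 10.5 CPM in wild type and at 5.54, 2.95, 13.1 and 1.93 in the libraries labelled KO (-2.25 ± 0.57, adjusted p = 0.478, and 0.0181 in DESeq2). Only WT 4 and KO 3 overlapped. Id3, its relative, differed by -1.81 ± 0.56, and Bambi, a decoy receptor gene, by -0.65 ± 0.21. Smad5, a BMP signal transducer, was at 70.9 to 128 CPM in wild type and 131 to 148 in the libraries labelled KO (0.53 ± 0.18, and 0.30 adjusted for GC and length).

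Of 45 NF-kB and inflammation genes tested, 7 were lower (15.6%, against 3.64% of all genes) and 0 higher at an unadjusted p under 0.05, with a median of -0.13. Socs3, a feedback inhibitor of cytokine signalling, stood at 186, 109, 91.8 and 53.4 CPM in wild type against 54.4, 45.9, 65.7 and 38.0 (-1.11 ± 0.32). The chemokine gene Ccl2 was at 3.21 to 14.3 CPM against 0.44 to 2.55 (-2.22 ± 0.65), Tnf at 2.75 to 10.8 against 1.67 to 2.96 (-1.50 ± 0.47), and Nfkbid, an NF-kB inhibitor gene, differed by -1.85 ± 0.60. Interferon response genes had a median of -0.12, with 2 of 46 lower, Irf7 (-0.90 ± 0.25) and Ifitm1 (-0.45 ± 0.20, and -0.28 adjusted for GC and length). That share, 4.35%, was near the 3.64% of all genes. Among 24 growth factor receptors, Csf2ra, the GM-CSF receptor alpha chain, was the 1 at that level (-1.11 ± 0.39), with WT 1 and WT 2 high at 68.1 and 81.4 CPM and the other 6 libraries at 17.3 to 29.0.

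Chaperone genes went in both directions. Hspa5 (BiP), of the endoplasmic reticulum, stood at 994, 999, 923 and 790 CPM in wild type and 1097, 1402, 1346 and 1233 in the libraries labelled KO without overlap (0.45 ± 0.14). Hspd1, of mitochondria, differed by 0.47 ± 0.18 and Dnaja1, of the cytosol, by 0.54 ± 0.18. Dnajb1, a heat-inducible cytosolic cochaperone, was at 433 to 878 CPM against 261 to 465 (-0.65 ± 0.25). Adjusted for GC and length, Hspa5 was at 0.27 and Dnaja1 at 0.13. In the list of 18, 4 were higher (22.2%, against 4.82% of all genes) and 1 lower (5.56%, against 3.64%) at an unadjusted p under 0.05. The median was -0.11.

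Of 26 glycolysis genes Hif1a, the hypoxia factor, was the 1 at that level, at 109, 47.8, 85.5 and 75.02 CPM against 137, 141, 125 and 125 (0.73 ± 0.22, and 0.44 adjusted for GC and length). Of 19 genes of mitochondrial dynamics 2 were higher (10.5%, against 4.82% of all genes) and 1 lower (5.26%, against 3.64%) at that level. Dnm1l, the fission GTPase, differed by 0.57 ± 0.22, Yme1l1, a protease of the inner membrane, by 0.58 ± 0.21, and Pink1, a mitophagy kinase, by -0.40 ± 0.17. Adjusted for GC and length, Dnm1l was at 0.30 and Yme1l1 at 0.20. Among 28 antioxidant genes 2 were higher (7.14%, against 4.82% of all genes) and 1 lower (3.57%, against 3.64%). Txnrd1 (thioredoxin reductase) differed by 0.29 ± 0.12 and Txn1 (thioredoxin) by -0.44 ± 0.19. Cad, of pyrimidine synthesis, was the 1 of 20 genes of the MYC and MAX network at that level (0.44 ± 0.19).

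**Figure D5:**
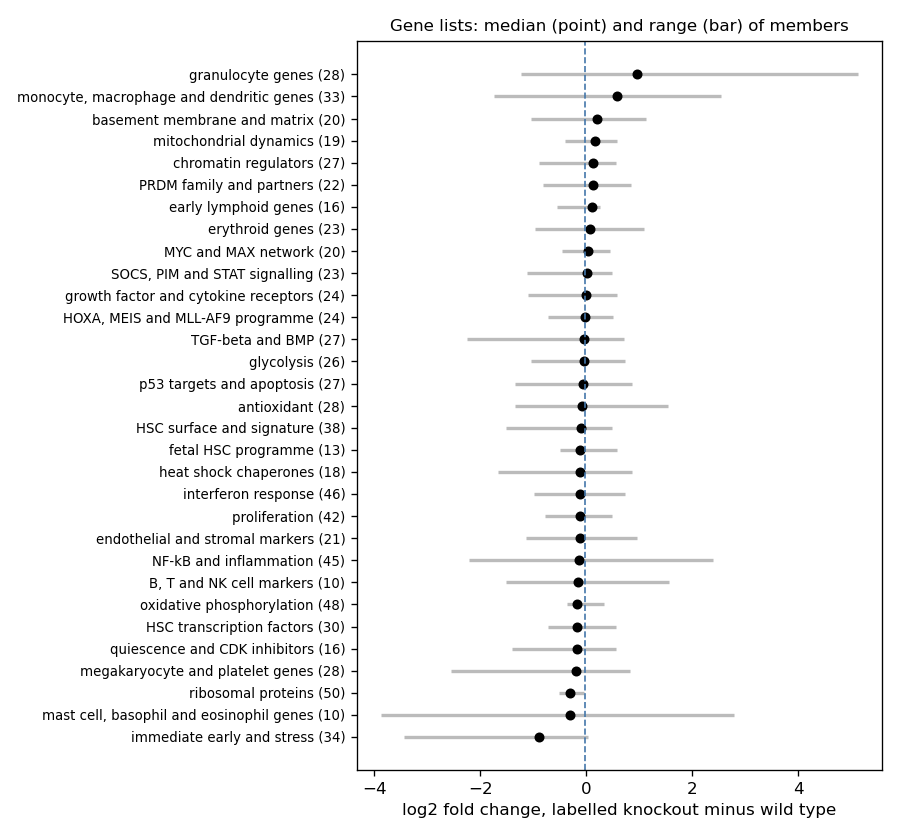
Median (point) and range over members (bar) of the log2 fold change, labelled KO minus wild type, for 31 gene lists, with the number of members tested in brackets; the dashed line is the median of all tested genes, -0.03. The immediate early and stress list lies farthest below it at -0.89 and the granulocyte list farthest above at 0.96.

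The granulocyte list had the highest median, 0.96, which ranged over the alternatives from -0.07 without KO 4 to 1.78 without KO 1. It was 1.75 without KO 2 and 1.47 without WT 3, and lay between -0.01 and 0.53 with voom, the replicate block, DESeq2 or another filter on low counts. Of 28 tested genes 20 were higher, and 3 were higher (10.7%, against 4.82% of all genes) at an unadjusted p under 0.05. Mmp9, a secreted gelatinase of neutrophil granules, stood at 0.11, 0.55, 0.88 and 0 CPM in wild type and at 0.31, 0, 27.8 and 26.4 in the libraries labelled KO. Mmp8, the neutrophil collagenase, was at 23.1 and 47.2 CPM in KO 3 and KO 4 and at 1.83 or less in the other 6 libraries. Cd177, a neutrophil surface protein, reached 33.8 CPM in KO 4. For other granulocyte markers WT 3 lay above KO 1, KO 2 and KO 3. Ngp was at 2.71, 16.5, 91.7 and 5.66 CPM in wild type against 1.19, 47.8, 65.0 and 355. S100a8 was at 4.32, 16.9, 107.5 and 18.5 CPM against 1.15, 22.6, 83.1 and 316. Prtn3, a primary granule protease also expressed in progenitors, went the other way, at 284, 320, 222 and 282 CPM against 173, 185, 196 and 168 (-0.62 ± 0.14, adjusted p = 0.478, and -0.38 adjusted for GC and length). The summed CPM of 9 granulocyte markers was 574 to 694 in wild type and 379, 368, 594 and 1620 in the libraries labelled KO, with none at 0. The part of mature neutrophils in these values was not tested, and in sorted bulk samples fewer cells of a type and less RNA per cell cannot be told apart.

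Macrophage genes gave a mixed picture. Of 33 monocyte, macrophage and dendritic genes tested 3 were higher and 3 lower (9.09% each) at an unadjusted p under 0.05. Of all genes 4.82% were higher and 3.64% lower at that level. The median of the list was 0.58 and ranged from -0.06 to 0.61 over the alternatives. Mrc1, the macrophage mannose receptor, stood at 0.99, 1.88, 0.36 and 0.67 CPM in wild type and 7.46, 8.26, 4.89 and 2.18 in the libraries labelled KO (2.53 ± 0.62, and 0.0118 as the adjusted p in DESeq2). Hmox1, the haem-degrading enzyme, was at 4.34 to 8.95 CPM against 8.84 to 29.1 (1.55 ± 0.38), and only KO 4 fell in the wild-type range. Klf4, which is also in the immediate early list, differed by -1.74 ± 0.52. Apoe, an apolipoprotein gene also expressed in HSCs, was at 610 to 877 CPM against 429 to 532 (-0.60 ± 0.15, and -0.39 adjusted for GC and length). Summed markers of mononuclear phagocytes were 16.2 to 37.6 CPM in wild type and 35.1 to 69.4 in the libraries labelled KO, with 0 of 9 markers absent from all libraries. Of these only Vcam1 did not overlap between the groups, at 7.53, 11.8, 2.27 and 6.18 CPM against 17.6, 42.7, 14.4 and 11.9. Cd68 was at 10.9, 17.9, 10.3 and 16.0 CPM against 12.9, 11.4, 21.1 and 12.9.

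Summed markers of the other lineages overlapped between the groups. Erythroid markers summed to 57.1 to 200 CPM in wild type and 43.4 to 272 in the libraries labelled KO, with Hba-a1 and Hbb-b1 at 0 throughout. B cell markers summed to 39.8 to 62.4 CPM against 46.1 to 61.3, T and NK cell markers to 1.98 to 11.2 against 2.95 to 8.60, and endothelial and stromal markers to 24.0 to 94.8 against 34.5 to 65.7. Stem cell markers summed to 2742 to 4615 CPM in wild type and to 3632 to 4654 in the libraries labelled KO. Of 28 megakaryocyte and platelet genes (median -0.20) 1, Tubb1 (platelet beta-tubulin), lower at an unadjusted p under 0.05 (-0.71 ± 0.31), while Selp (P-selectin) differed by -0.68 ± 0.38. The eosinophil granule gene Prg2 was at 24.3, 0.51, 29.9 and 82.9 CPM against 4.44, 3.20, 0.48 and 1.19, with WT 2 at the level of the libraries labelled KO. Ccr3, the eotaxin receptor, was at 0 to 0.80 CPM in wild type and 0.27 to 3.87 in the libraries labelled KO.

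Whether the difference in marrow was the same as in fetal liver was tested against the 3 knockout and 3 wild-type fetal liver HSC libraries of the total PRDM16 knockout, in 1 joint fit of 15949 genes shared by both tables. Knockout is the label of these libraries too, and Prdm16 RNA was present in all of them. It stood at 43.1, 46.1 and 29.9 CPM in wild type and 28.6, 28.0 and 13.4 in the knockout (-0.76 ± 0.50, edgeR unadjusted p = 0.147). The tables were deposited separately, so tissue and preparation cannot be told apart, and each effect is taken within its own table. Only Slc5a3 passed (0.00627%), with 1268 genes at an unadjusted p under 0.05 (7.95%). In fetal liver Slc5a3 stood at 30.4, 25.4 and 25.1 CPM in wild type and 16.0, 21.1 and 15.0 in the knockout. Its log2 difference was 1.47 ± 0.19 in marrow and -0.64 ± 0.21 in fetal liver, a gap of 2.11 ± 0.28 (edgeR adjusted p = 0.0373). With 1 library left out at a time, Slc5a3 passed in 2 of 14 fits, those without WT 3 or WT 4. Its gap was 2.00 to 2.26 over these fits, with adjusted p from 0.0381 to 0.288. With the replicate number as a block the adjusted p was 0.202.

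Other genes named by the same rule did not pass. Rgs1, a regulator of G protein signalling, was at 2485, 2040, 1284 and 552 CPM in wild-type marrow against 844, 697, 879 and 829, and at 6.38 to 9.03 CPM in wild-type fetal liver against 23.3 to 32.4 (gap -2.81 ± 0.50, adjusted p = 0.141). Tmem40 had a gap of -1.12 ± 0.19 (adjusted p = 0.112). Srsf10, a splicing factor gene, had a gap of 0.78 ± 0.17. Ugt1a2, which shares exons with other Ugt1a transcripts so that its counts are uncertain, was at 0.25 to 0.90 CPM in wild-type marrow and at 0 in the libraries labelled KO.

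For the immediate early list the joint fit gave a median of -0.85 in marrow and -0.02 in fetal liver, with 0 of 34 members passing the test of the difference and 13 at an unadjusted p under 0.05. Fos stood at 31.4, 31.2 and 55.2 CPM in wild-type fetal liver and 59.4, 43.2 and 41.5 in the knockout, so its groups overlapped there (gap -1.28 ± 0.38, adjusted p = 0.580).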

How the data were processed

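Total RNA of sorted mouse marrow HSCs was extracted with Trizol and amplified with a low-input SMARTer kit, per the labels. The submitters' processing notes name bcl2fastq 2.17, TopHat, build mm9 and DESeq. The counting tool, annotation and strand are not given in the sources used here, so overlapping, antisense and near-identical genes are uncertain. The authors deposited raw counts per gene (24043 rows). The 92 spike-in rows, with 0 counts, were dropped. No pair of libraries within a group agreed within sampling noise.

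Genes with enough counts (filterByExpr, 13495) were scaled by TMM and tested with the two-sided quasi-likelihood test of edgeR 4.0.16 (robust, R 4.3.3). P-values were adjusted by Benjamini-Hochberg at a threshold of 0.05, and the biological coefficient of variation was 0.368. Alternatives used DESeq2 1.42.0 and limma 3.58.1. The fits were tested on simulated data. Named genes were Prdm16, 7 stem cell genes, the 8 per direction with the smallest p among genes that averaged 2 or more in log2 CPM and whose groups did not overlap (sex-linked and model-number names left out), up to 4 per list by p, and up to 5 per direction passing for the tissue difference (otherwise the 3 with the smallest p). A gene the rule names is not reported here. Jun, Junb, Dusp1, Ier2, Ier5, Gadd45b, Nr4a1, Egr1, Myc, Ddit3, Ngp, S100a8, Vcam1 and Cd68 were named after their values were seen. The members and the 32 lists (868 genes in the table) were chosen with earlier results of these data known. Some genes, such as Btg2 and Klf4, are in several lists. Of those lists, the basement membrane list (median 0.20), the early lymphoid list (0.11), the erythroid list (0.08) and the SOCS, PIM and STAT list (0.02) are in the plot of lists. Sex-linked transcripts (median 0.07, with KO 1 apart) were left out of it. Promoters came from RefSeq (GRCm38.p6).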

Additional observations from a re-analysis of the deposited data

Results flagged for a closer look

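In 196 groups of 4 libraries checked, over the named genes, the total counts and the genes with a count, 5 held a library that stood apart from the other 3 by Dixon's test. That is a smaller share than the 1 in 20 or so that chance gives. Esam, which encodes an adhesion molecule of HSCs, was high in KO 3, at 256 CPM. Hdac2 was low in WT 2, at 142 CPM, and Cdkn1a was low in KO 4, at 13.6 CPM. Ugt1a2 was high in WT 1, at 0.994 CPM in the marrow table. Ddx3y, a Y-linked gene, was low in KO 1, at 0.0382 CPM.

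For Slc5a3 the effect of the label differed between marrow and fetal liver by 2.11 on the log2 scale (edgeR adjusted p = 0.0373), higher in 4 of 4 marrow libraries labelled KO than in all wild types and lower in 3 of 3 fetal knockout libraries than in all wild types. It passed in 2 of 14 fits with 1 library left out, and the adjusted p was 0.202 with the replicate number as a block.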

How the results depend on the processing

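The count of genes passing was 82 with DESeq2 (13 of them in the lists), and 0 to 3 with 1 library left out, 3 being without WT 4 (2 in the lists, range 0 to 2). TMM against DESeq2 size factors in edgeR, no or stricter filtering, voom, the GC and length adjustment, and leaving out KO 3 with WT 4 (the last 2 chosen after seeing the data) gave 0. With the replicate number as a block 0 genes passed and Prdm16 was at 0.060. The correlations of same-numbered libraries (0.20, 0.03, 0.04 and -0.03) do not pair the samples. For the difference from fetal liver DESeq2 called 38 genes, the block 0 and single left-out libraries gave 0 to 2; among these the count was 0 without WT 2, any KO library or any fetal library, 1 in the other direction without WT 1, and 2 without WT 4. The median of all genes moved from -0.03 to -0.13 with DESeq2 and -0.11 without a filter.

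Signs that reversed, none of them passing, were for Prdm16 (0.072 with the GC and length adjustment, -0.32 to 0.35 with 1 library left out), Ly6a (0.035 with the adjustment, 0.0077 without KO 3 and WT 4, -0.24 to 0.041 with 1 left out), Cd48 (0.26 with voom, 0.21 without KO 3 and WT 4, -0.42 to 0.089), Hlf (-0.065 and -0.19 in the same order as Ly6a, -0.058 to 0.35), Procr (-0.36 to 0.032), Myc (-0.060 to 0.12) and Ddx3y (-1.88 with voom, -0.11 without KO 3 and WT 4). The cause was not tested. Depth was similar in all libraries.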

Other observations

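Prdm16 followed the order 1, 3, 2, 4 from high to low in both groups of libraries, although the labels pair no libraries. Among 11047 genes with a mean log2 CPM of at least 2, 455 (4.12%) had the same order of the 4 numbers in both groups.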
